A study of Mus musculus with 2 samples.

Results

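Glucocorticoid-induced genes were examined in AML12 cells made senescent with hydrogen peroxide. The group comprised 10 genes chosen by name, out of 35275 genes in the count table: Fkbp5, Tsc22d3, Zbtb16, Sgk1, Klf9, Angptl4, Cebpd, Tat, Hsd11b1 and Errfi1. AML12 is a non-transformed hepatocyte line from a mouse that carried a transgene for human transforming growth factor alpha, and the labels give its source as liver of a male CD-1 mouse aged 3 months. Control cells, titled Young, were untreated. Senescent cells, titled Old, were exposed to hydrogen peroxide in serum-free medium for 1 h daily over 6 days, with 1 mM used on day 1 and 750 μM on the 5 days that followed. After each exposure they recovered for 23 h in complete medium, which held 10% serum and 100 nM dexamethasone, a synthetic glucocorticoid. All cells were therefore cultured with a glucocorticoid, and no group without it was part of the series. The sources used here do not say whether control cells passed through the same serum-free hours or which medium was on the cells when RNA was taken, so peroxide and any difference in hormone exposure cannot be told apart. RNA of 3 samples was pooled for each of the 2 libraries, 1 control and 1 senescent, and reads were counted per gene.

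Glucocorticoids cross the cell membrane and bind the glucocorticoid receptor, which waits in the cytoplasm in a complex with HSP90 and its helpers. The bound receptor moves to the nucleus, binds DNA at palindromic response elements and recruits coactivators, and it lowers the output of NF-κB and AP-1 at inflammatory genes. In hepatocytes it drives gluconeogenesis and amino acid breakdown, and it induces its own brakes.

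The control library held 28021941 reads and the senescent library 25738075. The 10 genes made up 0.176% of all control reads and 0.172% of all senescent reads. TMM scaling in edgeR set both libraries on 1 scale, on which levels are given as CPM, a gene's reads relative to the scaled library total. Log2 ratios are senescent over control and carry 95% Clopper-Pearson intervals. Intervals and the floor of 3 reads reflect counting error alone, as PCR copies without molecular identifiers are not separate molecules. Replicates were lacking, so no p-value was computed and a ratio compares a pair of libraries, not the conditions. Higher or lower was called from a total of 10 reads upward, where the log2 ratio exceeded 1.5 in either direction and the interval left out 0. Of 14 hepatocyte markers, 13 had enough reads, 2 were higher and 2 lower. The summed level of the 14 markers was 8585 and 10197 CPM in control and senescent cells. Most of this sum came from Krt8 (4106 and 5838 CPM) and Krt18 (1393 and 2457 CPM). Among the 13 markers, the counting interval was above 0 for 7 and below 0 for 5. Krt8 led them with 119403 and 144783 reads, Alb, the albumin gene, fell from 32076 to 2917, and Cyp2e1 had 0 reads in the control. Of 5 cholangiocyte markers, 4 had enough reads and 0 were called, with a summed 1897 and 1421 CPM. Of 8 fibroblast markers, 1 had enough reads and was lower (Col1a1, 21 and 1 reads), Col1a2, Col3a1, Lum and Thy1 were at 0 in both libraries, and the sum was 0.722 and 0.323 CPM. Of 8 macrophage markers, 4 had enough reads and 2 were higher at low counts, Ptprc (27 and 76 reads) and Csf1r (15 and 40 reads). Adgre1 and Clec4f were at 0 in both libraries, and the sum of the 8 was 193.6 and 82.2 CPM, mostly from Cd14. The 5 endothelial markers all had too few reads, with 0.206 and 0.524 CPM in all. The part of these markers in the results was not tested.

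Most of the glucocorticoid-induced genes had a log2 ratio within 1 of 0, as did most of all genes. Of the 10 genes, 9 had at least 10 reads. None was counted as higher, against 2.71% of all 14383 genes with that many reads, and 1, Zbtb16, was counted as lower, against 5.6% of all genes. The median log2 ratio of the 9 genes was -0.18, beside -0.02 for all genes. At a threshold of 1, where 5.09% of all genes were higher and 9.98% lower, 0 of the 9 genes were higher and 2 lower. At a threshold of 2, where 1.52% of all genes were higher and 3.2% lower, Zbtb16 was again the gene that passed. Of the 9 genes, 7 lay within 1 of 0 on the log2 scale (77.8%), and 83.1% of all genes did. The counting interval was above 0 for 3 genes, which 34% of all genes shared, and below 0 for 5 genes, which 34.6% of all genes shared. In pooled culture RNA, fewer cells that express a gene and less of its RNA per cell cannot be told apart. Total-count scaling moved the median of all genes by -0.11, and with it the log2 ratio of Sgk1 went from 0.09 to -0.02, whereas the other 8 genes kept their sign under each of the 4 scalings tried.

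**Figure D1:**
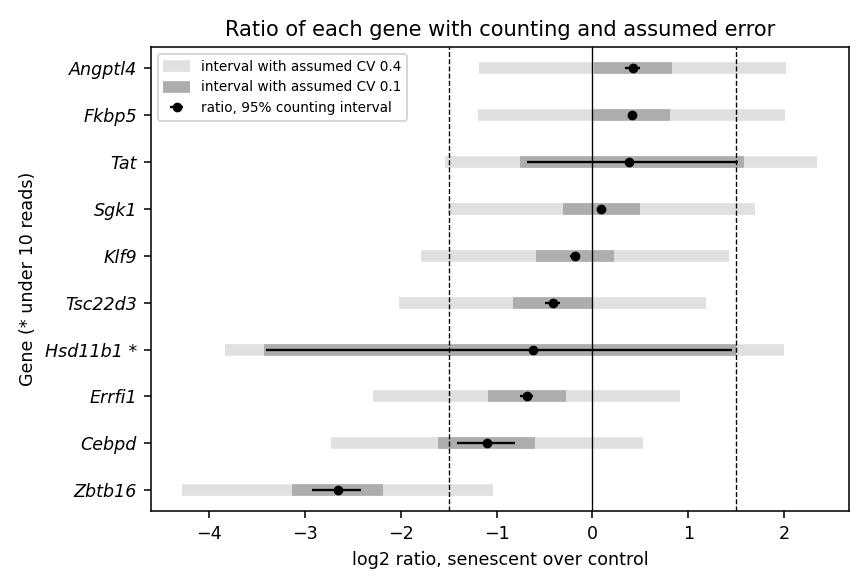
Log2 ratio of senescent over control for each glucocorticoid-induced gene. Points are ratios, thin black lines are 95% counting intervals, grey bars add an assumed coefficient of variation between samples of 0.1 (dark) or 0.4 (light), and dashed lines mark 1.5 in either direction. Zbtb16, at -2.65, is the gene beyond a dashed line, and its lighter bar ends at -1.03.

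No replicate measured the spread between cultures, so intervals were also widened for an assumed coefficient of variation. At 0.1, the intervals of 6 of the 9 genes still left out 0 (Fkbp5, Tsc22d3, Zbtb16, Angptl4, Cebpd and Errfi1). At 0.4, this held for 1 gene, Zbtb16. The share of all genes whose widened intervals leave out 0 was not computed, so these counts have no background beside them. The plot of ratios with their error shows that for Sgk1, Klf9 and Tat the bar for the smaller assumed variation already includes 0.

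The lowest ratios of the group were those of Zbtb16 and Cebpd, which encode transcription factors. Zbtb16 encodes PLZF, a zinc finger repressor that glucocorticoids induce strongly in many cell types. Zbtb16 (ENSMUSG00000066687) lies on chromosome 9 from 48654297 to 48836222 on the minus strand of GRCm38, in the GENCODE M21 annotation used here for names and positions. Its reads numbered 1081 in control and 146 in senescent cells, or 37.2 and 5.89 CPM after scaling. It fell by 2.65 on the log2 scale (interval -2.92 to -2.41), a 6.28-fold lower level. Its ratio was at percentile 1.47 of the genes with at least 10 reads. Over the alternatives in scaling and prior count its log2 ratio ranged from -2.76 to -2.62. The filter and the threshold affect the calls and leave a ratio unchanged.

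Cebpd encodes C/EBPδ, a factor that glucocorticoids and acute-phase cytokines both raise in liver. Cebpd (ENSMUSG00000071637, chromosome 16 from 15887286 to 15891031) was represented by 320 control and 127 senescent reads. The log2 ratio was -1.10 (-1.41 to -0.80), short of the threshold of 1.5 and beyond a threshold of 1. In the annotation, 562 exon bases of Cebpd are shared with Spidr on the opposite strand. Whether counting used strand is not given in the sources used here, which leaves the division of reads over this pair uncertain. For Spidr the reads were 521 and 250 (log2 ratio -0.83, interval -1.05 to -0.61), so both genes had fewer reads in the senescent library.

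Klf9 encodes a Krüppel-like factor that the receptor induces directly and that represses cell growth genes. Klf9 (ENSMUSG00000033863, chromosome 19 from 23141226 to 23168134) gave 5835 control reads against 4386 senescent reads (log2 ratio -0.18, interval -0.24 to -0.13). Tsc22d3 encodes GILZ, the glucocorticoid-induced leucine zipper, which binds NF-κB and AP-1 and carries part of the anti-inflammatory action of the hormone. Tsc22d3 (ENSMUSG00000031431, chromosome X from 140539528 to 140600659, minus strand) gave 3179 control and 2032 senescent reads, or 109 and 81.9 CPM. Its log2 ratio was -0.42 (-0.50 to -0.34), a level 1.33-fold lower. Both genes were lower in the senescent library by more than counting error and by less than the threshold.

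Sgk1, a kinase that controls sodium channels and cell survival, stood nearly level. Sgk1 (ENSMUSG00000019970, chromosome 10 from 21882184 to 21999903, plus strand) gave 16369 control and 14860 senescent reads, or 563 and 599 CPM after scaling. The log2 ratio was 0.09 (0.06 to 0.12) and was -0.02 with total counts. These values place Sgk1 near the middle of all genes, at percentile 57.5 of the ratios.

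Sgk1 was also the gene of the group whose promoter held a full receptor palindrome. RefSeq promoter windows of GRCm38.p6, running from 250 bases before to 50 bases after a transcript start, were searched on both strands for the response element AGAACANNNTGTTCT, where N is any base. The element reads the same on both strands. It was present in 3 of 32851 windows (0.00913%), and 1 of them belongs to Sgk1. Its shorter core, GNACANNNTGTNC, which the full element contains, occurred in 156 windows (0.475%), and the same Sgk1 window was the 1 window with it among 15 windows of 7 of the 10 genes. A single arm of the palindrome, AGAACA or its reverse complement TGTTCT, occurred in 19.0% of all windows. It occurred in 4 of the 15 windows, 3 of Sgk1 and 1 of Tsc22d3, and Sgk1 alone had 6 of the 15. By gene, an arm occurred in 2 of the 7 genes, beside 21.3% of all genes with windows. The full element contains both arms, so its Sgk1 window is among the 4 windows with an arm. That window also holds a further lone arm, TGTTCT, 242 to 237 bases before the start, outside the stretch shown. Zbtb16, Angptl4 and Cebpd had no entry in the promoter table. The stretches around these matches are shown 5′ to 3′ on the strand of the gene, to let the full element be compared with lone arms. Capitals mark the matched letters.
Sgk1, full element, chr10:21993661-21993755, plus strand: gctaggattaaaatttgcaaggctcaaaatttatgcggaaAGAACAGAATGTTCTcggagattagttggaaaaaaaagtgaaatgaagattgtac
Sgk1, arm near the first annotated start, chr10:21881949-21882034, plus strand: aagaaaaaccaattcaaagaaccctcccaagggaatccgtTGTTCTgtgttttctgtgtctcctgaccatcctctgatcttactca
Sgk1, arm before another RefSeq start, chr10:21992170-21992222, plus strand: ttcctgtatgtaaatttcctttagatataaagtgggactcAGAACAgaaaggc
Tsc22d3, single arm, chrX:140600662-140600747, minus strand: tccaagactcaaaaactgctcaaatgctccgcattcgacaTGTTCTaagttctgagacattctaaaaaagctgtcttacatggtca

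The full element of Sgk1 begins 189 bases before the transcript start at position 21993890 and ends 175 bases before it. The arm of Tsc22d3 lies 185 to 180 bases before the RefSeq start at 140600522, which is the start of 1 of 3 Tsc22d3 windows. A match in letters is a description and not evidence of binding, and counts per gene do not tell which of the annotated starts of Sgk1 was in use. The windows cover a small part of each gene's surroundings, and regions outside them were not analysed here.

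Fkbp5 and Errfi1 both encode brakes on a receptor, and their ratios lay on opposite sides of 0. Fkbp5 encodes FKBP51, an HSP90 co-chaperone that lowers the hormone affinity of the receptor and is among its most widely used targets. Fkbp5 (ENSMUSG00000024222, chromosome 17 from 28399094 to 28517527, minus strand) gave 15461 control and 17519 senescent reads, or 532 and 706 CPM after scaling. The log2 ratio was 0.41 (0.38 to 0.44), a 1.33-fold higher level that did not reach the threshold. Errfi1 encodes MIG6, an inhibitor of the EGF receptor. Errfi1 (ENSMUSG00000028967, chromosome 4 from 150853919 to 150868892) gave 4740 and 2512 reads, or 163 and 101 CPM, with a log2 ratio of -0.69 (-0.76 to -0.62).

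Metabolic members included a well-expressed secreted factor and a pair of liver enzymes near the detection limit. Angptl4 encodes a secreted inhibitor of lipoprotein lipase. Angptl4 (ENSMUSG00000002289, chromosome 17 from 33773750 to 33781830, minus strand) had 2422 control and 2763 senescent reads and a log2 ratio of 0.42 (0.34 to 0.50), a 1.34-fold higher level below the threshold. Tat encodes tyrosine aminotransferase, the classical hormone-induced enzyme of hepatocytes. Tat (ENSMUSG00000001670, chromosome 8 from 109990437 to 109999803) gave 15 and 17 reads, or 0.516 and 0.685 CPM. Its log2 ratio of 0.39 had an interval from -0.68 to 1.51, so a difference of Tat was not detectable at this depth. Hsd11b1 encodes the enzyme that regenerates active glucocorticoid from its inactive ketone form. Hsd11b1 (ENSMUSG00000016194, chromosome 1 from 193221634 to 193264075, minus strand) had 6 and 3 reads, too few to be counted. The log2 ratio of Hsd11b1, -0.62, had an interval from -3.40 to 1.46. Senescent reads of Hsd11b1 equal the floor of 3 reads, or 0.121 CPM after scaling. Transcripts of both enzymes were thus scarce in the control as well as in the senescent library.

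**Figure D2:**
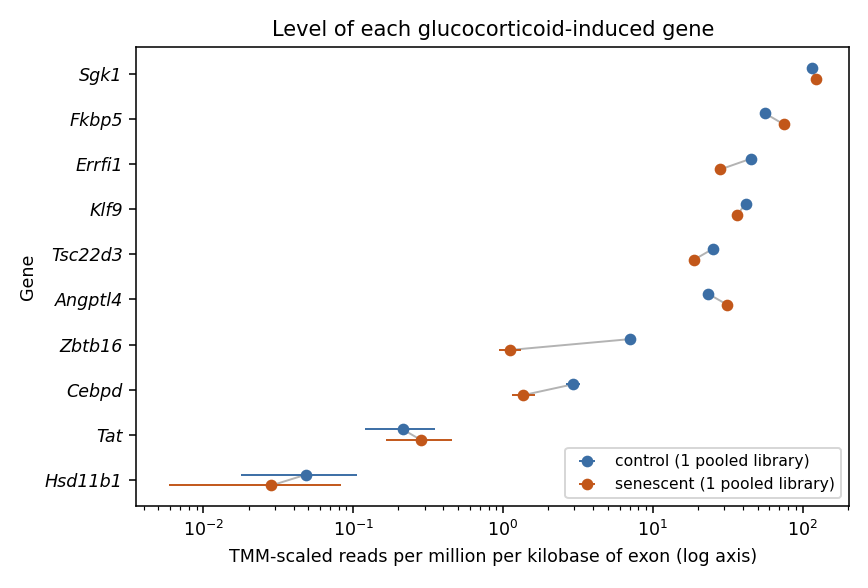
Level of each glucocorticoid-induced gene in the control library (blue) and the senescent library (orange), as TMM-scaled CPM per kilobase of exon on a log axis. Horizontal lines are exact 95% Poisson intervals, which cover counting error only. Sgk1 and Fkbp5 are highest in both libraries, at 115 and 56.2 in the control, and Zbtb16 shows the longest step between the libraries, from 7.04 to 1.11.

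Levels were compared between genes per kilobase of annotated exon, since longer transcripts give more reads. On this scale the order in the control was Sgk1 (115), Fkbp5 (56.2), Errfi1 (45.5), Klf9 (41.7), Tsc22d3 (25.2), Angptl4 (23.5), Zbtb16 (7.04), Cebpd (2.94), Tat (0.214) and Hsd11b1 (0.0485). Tsc22d3 and Angptl4 were the neighbours whose counting intervals overlapped in the control. In the senescent library the scaled level per kilobase was 122 for Sgk1, 74.6 for Fkbp5, 36.7 for Klf9, 31.5 for Angptl4, 28.3 for Errfi1 and 18.9 for Tsc22d3. It was 1.37 for Cebpd, 1.11 for Zbtb16, 0.285 for Tat and 0.0285 for Hsd11b1. Errfi1 thereby moved from rank 3 to rank 5 of the group and Angptl4 from rank 6 to rank 4. Cebpd and Zbtb16 were the neighbours with overlapping intervals in the senescent library. Sgk1 lay at percentile 97.3 of all genes by level per kilobase among control levels and 97.4 among senescent levels, whereas Zbtb16 lay at percentile 57.8 and 27.0. Exon lengths pool all annotated transcripts of a gene, so levels of genes with many transcripts, such as Fkbp5 with 15, are lower than those of the transcript in use.

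**Figure D3:**
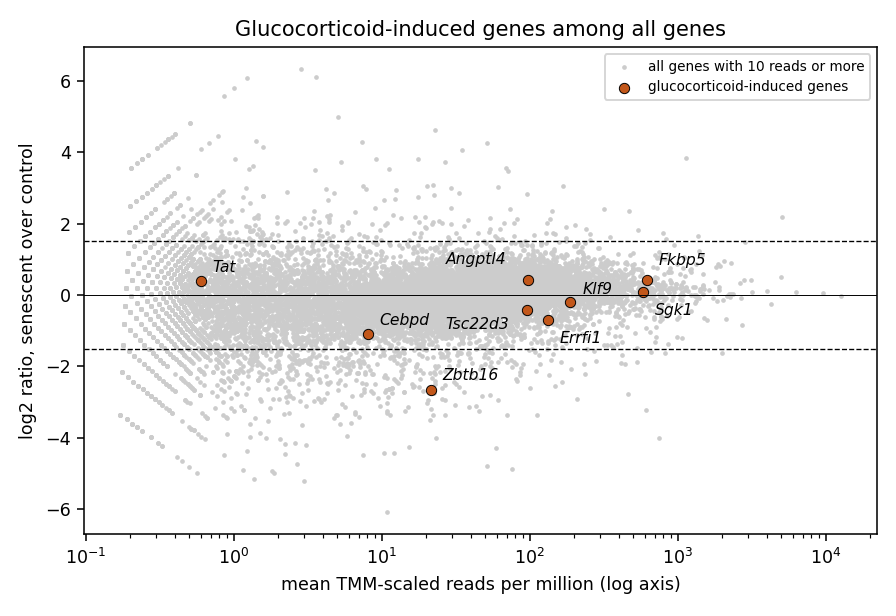
Log2 ratio of senescent over control against the mean TMM-scaled CPM (log axis) for all genes with at least 10 reads (grey) and for the 9 glucocorticoid-induced genes with that many reads (orange). Dashed lines mark 1.5 in either direction. Zbtb16 lies below the lower line at -2.65 and the other 8 genes lie between -1.10 and 0.42.

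Members were also compared with each other inside each library, which does not depend on how libraries are scaled. Of 36 pairs among the 9 genes, 30 differed in log2 ratio by more than counting error, and 5 of the remaining 6 involved Tat. The share of such pairs among all genes was not computed, and many reads per gene make counting intervals narrow. Reads of Fkbp5 were 4.86 times those of Tsc22d3 in the control and 8.62 times in the senescent library, a difference of 0.83 on the log2 scale (0.74 to 0.91). Reads of Fkbp5 were 14.3 times those of Zbtb16 in the control and 120 times in the senescent library, a difference of 3.07 (2.82 to 3.32). Angptl4 and Fkbp5 kept nearly the same proportion, 0.157 and 0.158, with a difference in log2 ratio of 0.01 (-0.07 to 0.09). The glucocorticoid-induced genes thus did not share 1 common ratio within counting error, and their log2 ratios spanned 3.07 from Zbtb16 to Angptl4. This spread was not compared with that of other genes.

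The receptor and its machinery were described by 23 genes, listed from general knowledge but with earlier results of these data known. Nr3c1, the glucocorticoid receptor gene, had 3280 control and 2950 senescent reads. Its log2 ratio was 0.08 (0.00 to 0.15), and -0.03 with total counts. Of the 23 genes, 1 was counted as higher (4.35%) and 1 as lower (4.35%), near the 2.71% and 5.6% of all genes, and the median log2 ratio was 0.28 beside -0.02 for all genes. Among the chaperones that hold the receptor ready, Hsp90aa1 went from 20758 to 36785 reads, and its log2 ratio of 1.06 (1.03 to 1.08) did not reach 1.5. Fkbp4, which encodes the co-chaperone FKBP52 and competes with the product of Fkbp5, was at 13657 and 9349 reads (log2 ratio -0.32, interval -0.36 to -0.28). The gene counted as lower was Hsd11b2, whose enzyme inactivates natural glucocorticoids, with 23 and 4 reads (-2.06, interval -4.29 to -0.74), and with a prior count of 5 or an assumed variation of 0.4 it no longer passed. The gene counted as higher was Cyp3a11, a steroid-oxidising cytochrome P450, with 2 and 18 reads (2.85, interval 1.34 to 6.55). H6pd, which supplies the cofactor of the Hsd11b1 enzyme, had 15586 and 9838 reads (-0.43, interval -0.47 to -0.40).

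**Figure D4:**
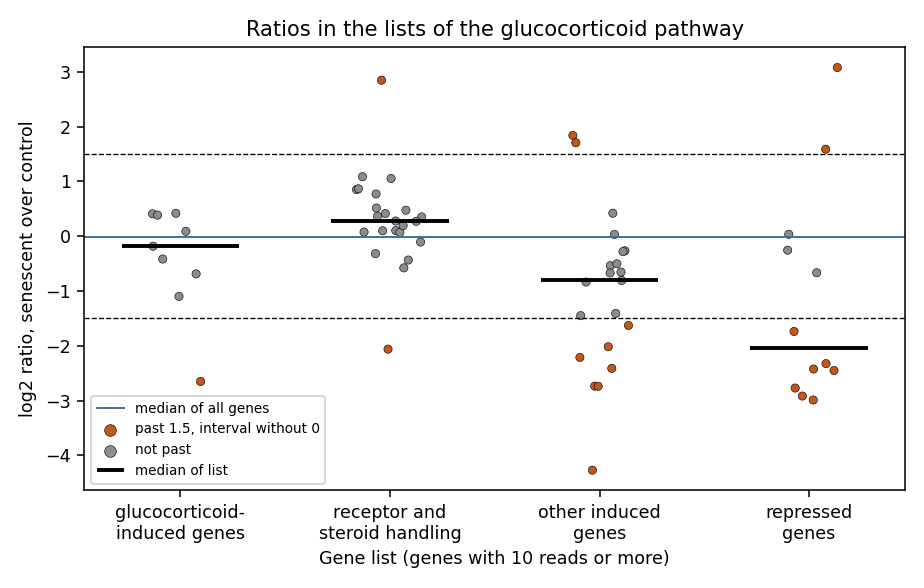
Log2 ratio of senescent over control for genes with at least 10 reads in the glucocorticoid-induced group, the receptor and steroid-handling list, the list of other induced genes and the list of repressed genes. Orange points passed 1.5 with an interval without 0, black bars are list medians (-0.18, 0.28, -0.81 and -2.03 from left to right) and the blue line is the median of all genes.

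A further 26 genes known to be induced by glucocorticoids, many of which also answer to other signals, were set beside the group. Of these, 21 had at least 10 reads, 7 were counted as lower (33.3%, beside 5.6% of all genes) and 2 as higher (9.52%, beside 2.71%). The median log2 ratio was -0.81. The list was chosen with earlier results of these data known, so its shares describe the list only. The lower genes were Sult1a1, a sulfotransferase, from 3256 to 143 reads (-4.27), Orm1, an acute-phase protein, from 147 to 18 (-2.74), and Pdk4, a kinase that blocks pyruvate oxidation, from 217 to 27 (-2.74). Rgs2 (-2.41), Ddit4 (-2.21), Nfkbia (-2.02) and Dusp1 (-1.63) were lower as well, and the last 3 encode brakes on mTOR, NF-κB and MAP kinases. Irs2 (1.84) and Cps1 (1.71) were the higher genes, and Cps1 had 19 and 55 reads. Glul (-1.45) and Mt2 (-1.41) came close to the threshold and passed it with total counts, at -1.56 and -1.52. Mt1, at -0.84, and Anxa1, at 0.42, had the most reads of the other genes that did not pass. Per1, a clock gene with a direct response element, had a log2 ratio of -0.54.

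Genes known to be repressed by glucocorticoids were represented by 18 genes, of which 12 had at least 10 reads. Of the 12, 7 were counted as lower (58.3%, beside 5.6% of all genes) and 2 as higher (16.7%, beside 2.71%), with a median log2 ratio of -2.03. This list, too, was chosen with earlier results of these data known, and its shares describe the list only. The lower genes were the chemokine genes Cxcl2 (-2.99), Cxcl5 (-2.92), Ccl2 (-2.77), Ccl7 (-2.45) and Cxcl1 (-1.74) and the adhesion molecule genes Vcam1 (-2.42) and Icam1 (-2.33). The higher genes were Mmp13, a collagenase, from 135 to 981 reads (3.08), and Ptgs2, a prostaglandin synthase, from 25 to 66 (1.59). Ptgs2 was at 1.49 with total counts, below the threshold. Lif (0.04), Il11 (-0.67) and Csf2 (-0.25) did not pass. Lower genes thus numbered 1 of 9 in the glucocorticoid-induced group (11.1%), 1 of 23 in the receptor list, 7 of 21 among the other induced genes and 7 of 12 among the repressed genes, beside 5.6% of all genes, and 1 gene in a list of 9 or 23 is close to that background. These shares were not tested against each other.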

How the data were processed

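RNAseq reads of AML12 cells were counted per Ensembl gene. The authors deposited un-normalized read counts for 1 control and 1 senescent library; columns were matched to samples by the initials of the titles. The submitters' processing notes name CASAVA, STAR, DESeq2, edgeR and the build mm10; the counting tool, the annotation and the use of strand are not given in the sources used here. Of 35275 genes, 34490 matched a symbol in GENCODE M21.

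Counts were scaled with TMM (edgeR 4.0.16, R 4.3.3). Log2 ratios used a prior count of 1 in proportion to library size, and Clopper-Pearson and Poisson intervals were computed in Python 3.11.15 with scipy 1.17.1 and pandas 2.3.3. Intervals of pairs used the normal approximation to log counts. No test was possible with 1 library per group. The alternatives were total-count, DESeq2 1.42.0 and upper-quartile scaling, other filters, prior counts and thresholds, and assumed variation. The functions were tested on simulated data. The floor of 3 reads is 0.107 CPM of the control and 0.117 CPM of the senescent reads.

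The members and lists were chosen with earlier results of these data known. All members are named; of the other lists, genes counted as higher or lower, those with the most reads that were not, and genes whose role is described. Spidr and Per1 fall outside this rule and were chosen after their values were seen. A search within 5 kb of gene starts was not run; promoter windows from RefSeq were used.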

Additional observations from a re-analysis of the deposited data

How the results depend on the processing

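No glucocorticoid-induced gene was counted as higher under any of the 11 alternatives, and the count of lower genes was 1 in 10 of them. With a threshold of 1 the count of lower genes was 2, because Cebpd joined Zbtb16. The median log2 ratio of the group stayed between -0.30 and -0.18 and kept its sign. Among the other lists, the count of higher repressed genes went from 2 to 1 with total counts and with a prior count of 5, where Ptgs2 had 1.49 and 1.45, and also with a minimum of 100 reads, a threshold of 2 and an assumed variation of 0.4. The counts of 1 higher and 1 lower receptor-list gene went to 0 with a minimum of 100 reads, and 3 genes were higher with a threshold of 1. Among other induced genes, 9 were lower with total counts or a threshold of 1 in place of 7 and 6 with a threshold of 2, at which Dusp1 no longer passed, and the 2 higher genes became 1 with a minimum of 100 reads or an assumed variation of 0.4 and 0 with a threshold of 2. Over all genes, the count of higher and lower genes was 390 and 805 as reported, 141 and 395 with a minimum of 100 reads, 732 and 1435 with a threshold of 1, 219 and 460 with a threshold of 2, 259 and 602 with a prior count of 5 and 243 and 571 with an assumed coefficient of variation of 0.4. The 7 lower repressed genes became 6 with a threshold of 2, at which Cxcl1 no longer passed. No paired analysis was possible because each condition had 1 pooled library and the labels carry no replicate numbers. Depth limits statements on Tat and Hsd11b1, and spread between cultures was not measured.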

Other observations

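Relatives of the group were examined by gene symbol, a choice made after the members' values were seen. Of 17 Krüppel-like factor genes, 15 had at least 10 reads, and 1 was counted as higher and 1 as lower, close to the 2.71% and 5.6% of all genes for a list of this size. The lower gene was Klf15, a hepatic regulator of amino acid breakdown that glucocorticoids also induce, with 1504 reads in control and 418 in senescent cells (log2 ratio -1.62, interval -1.78 to -1.46). The higher gene was Klf16, from 483 to 1244 reads (1.59, interval 1.44 to 1.75), and it was at 1.49 with total counts, below the threshold, an alternative added for these relatives after seeing the data. With a threshold of 2 neither passed, and with an assumed variation of 0.4 Klf16 did not. Klf9 had the ratio of -0.18 given above, so these relatives spanned both sides of it.

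In the C/EBP family, Cebpa, a driver of hepatocyte identity, went from 1993 to 626 reads, with a log2 ratio (-1.44, interval -1.57 to -1.31) just short of the threshold, and with total counts it passed at -1.55. Cebpb, with 3379 and 2337 reads, had -0.30 (-0.38 to -0.23). Cebpz (0.86, interval 0.78 to 0.94) and Cebpg (0.14, interval 0.07 to 0.21) went the other way. Of 5 C/EBP genes with at least 10 reads, Cebpd among them, 0 were counted as higher or lower. Of 12 Fkbp genes with at least 10 reads, 0 were counted as higher or lower, and their log2 ratios ran from -0.79 to 0.85. Tsc22d1, a relative of Tsc22d3 with more reads, was at 22446 and 17035 reads (log2 ratio -0.17, interval -0.20 to -0.14). Tsc22d2 went the other way, from 974 to 1550 reads (0.90, interval 0.78 to 1.02). Tsc22d4 was nearly level (0.04, interval -0.05 to 0.14).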
